A study of Mus musculus with 6 samples.

Results

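The 10 genes described here encode core parts of cytokine signalling: the Janus kinases Jak1 and Jak2, the transcription factors Stat3, Stat5a, Stat5b and Stat6, the feedback inhibitors Socs2, Socs3 and Cish, and the kinase Pim1. They were taken by name from a table of 53465 genes, and all 10 were found, each on 1 row. Their mRNA was compared between Nras(G12D)/MLL-AF9 cells kept for 6 days with 100 µM 4'-O-methylpyridoxine (OMP) and the same cells given an equal volume of PBS (Vehicle), with 3 libraries in each group. Nras(G12D)/MLL-AF9 cells are a mouse leukaemia line, and the cells of both groups carried the mutant Nras and the MLL-AF9 fusion and grew in medium with serum, stem cell factor (SCF), IL-3 and IL-6. The labels name no promoter or delivery for either oncogene and do not say whether the line is 1 clone or whether the replicates came from separate cultures, so every p-value speaks only of the variation among these 6 libraries, and that variation may be technical. OMP is an analogue of vitamin B6 known as an inhibitor of pyridoxal kinase.

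In this pathway a cytokine brings its receptor chains together, and the JAKs bound to them phosphorylate the receptor and the STAT proteins that dock there. Phosphorylated STATs pair, enter the nucleus and switch on target genes, among them Cish, Socs genes and Pim1. SOCS proteins then bind receptors or JAKs and damp the signal. IL-3 signals mainly through JAK2 and STAT5, and IL-6 through JAK1 and STAT3, so the medium of these cells holds a cytokine of each branch. Whether these cells responded to either was not measured. The values below are mRNA levels and say nothing of phosphorylation.

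Levels are given as RPKM, the reads of a gene scaled to its length and to the library total, so genes can be compared with each other. Library totals, recovered from the steps of the RPKM values, were 3494986 to 3720117 reads in OMP and 3737843 to 4247619 reads in Vehicle. A log2 fold change is OMP minus Vehicle on the scale of log2(RPKM + 0.5), which understates the change of low genes, and is given with its standard error (SE). It passed the threshold when limma's two-sided p, adjusted over 11020 genes, was under 0.05. All 11 immature myeloid leukaemia markers with a single row were above the minimum level of 1 RPKM in at least 3 libraries, among them Ptprc, Mpo, Hoxa9 and Meis1. Of these 11 markers 2 were higher (Ptprc and Cd33) and 6 lower with OMP, while Hoxa9, Hoxa10 and Meis1 did not pass the threshold. Among all genes tested 15.4% were higher and 27.5% lower, the background for each marker count in this paragraph. Their summed level ran from 1513 to 1623 RPKM in OMP and from 3026 to 3102 RPKM in Vehicle. Most of that sum was Elane, Prtn3 and Ctsg. Their means were 369.7, 181.8 and 472.9 RPKM in OMP, against 992.6, 586.1 and 988.7 RPKM in Vehicle, in that order. Of 12 markers of maturing neutrophils 11 were higher and 0 lower with OMP, and their summed level was 9491 to 10007 RPKM in OMP against 2769 to 2877 RPKM in Vehicle. Of 10 monocyte markers 8 were tested, 2 were higher and 2 lower. The sums of 2598 to 2722 RPKM in OMP and 2705 to 2756 RPKM in Vehicle were nearly all Ly6c2, which did not pass. Cd14 (76.0 RPKM in OMP, 23.6 in Vehicle) and Fcgr1 (6.67 and 2.33) were higher. Ccr2 (7.37 RPKM in OMP, 11.4 in Vehicle) and Irf8 (6.96 and 38.6) were lower. Of 6 B cell markers 4 had 0 reads, Pax5 and Ebf1 among them, and the 6 summed to 0 to 0.586 RPKM in OMP and 0.162 to 0.551 RPKM in Vehicle. Of 6 T cell markers 4 had 0 reads, Cd3e and Cd3g among them, and the sum of 2.58 to 4.04 RPKM in OMP and 3.10 to 3.34 RPKM in Vehicle was nearly all Lck. All 5 NK cell markers had 0 reads. Of 8 mast cell and basophil markers 3 were tested and 1 was lower, Ms4a2. Their sum was 23.2 to 32.7 RPKM in OMP and 30.8 to 32.7 RPKM in Vehicle. The only tested markers of eosinophils (Siglecf, lower), megakaryocytes (Gp1bb, higher) and dendritic cells (Itgax, higher) passed. The calls of Siglecf and Gp1bb were lost without OMP replicate 1 or OMP replicate 2, among other settings. Itgax averaged 9.99 RPKM in OMP and 5.35 RPKM in Vehicle. In bulk RNA, fewer cells of a type and less RNA per cell cannot be told apart, and the part of the shift in maturation markers in the results below was not tested.

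With OMP, 3 of the 10 genes were higher (Jak1, Stat6 and Cish), 3 were lower (Stat3, Stat5b and Pim1), 3 did not pass the threshold (Jak2, Stat5a and Socs2), and Socs3 was too low to be tested. Pim1 had the largest log2 fold change of the 9 tested genes, -0.74 ± 0.08 SE, followed by Cish at 0.43 ± 0.14 SE. Of all genes tested, 43.0% were called, 15.4% as higher and 27.5% as lower, so the 6 calls among 9 tested genes stand against a background in which changes were common. The groups did not overlap for 6 of the 9, against 54.5% of all genes tested. The median absolute log2 change was 0.28 for the 9 genes and 0.25 for all genes tested, and the signed medians were -0.02 for the 9 and -0.09 for all. The balance of directions depended on scaling. Of all called genes 35.9% were higher in the RPKM as deposited, 51.4% with median-of-ratios scaling, 49.2% with quantile normalization, 53.3% after a correction for GC content and length, and 23.4% with TPM. Among the 9 genes the split of 3 higher and 3 lower was the same under these settings except TPM, where 1 was higher and 3 were lower.

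**Figure D1:**
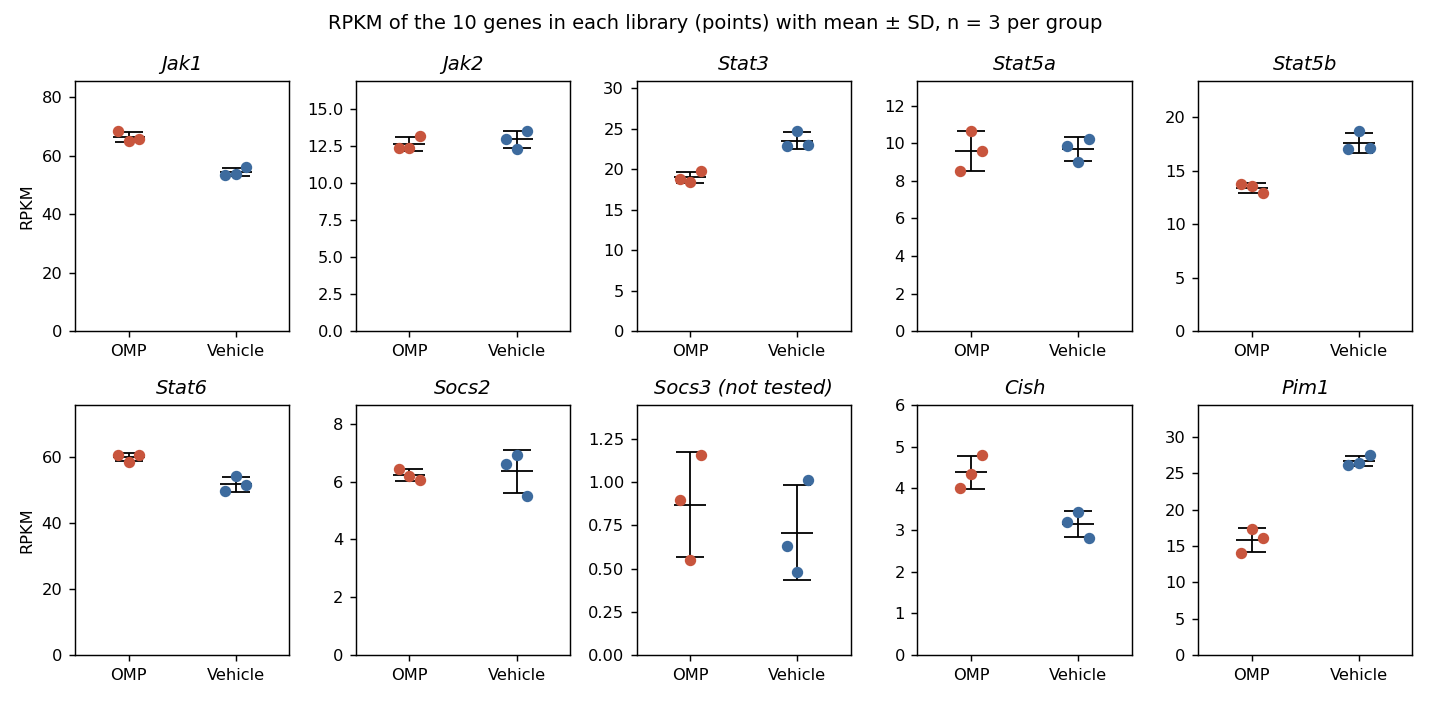
RPKM (linear axis from 0) of each of the 10 genes in the OMP libraries (red, left) and the Vehicle libraries (blue, right), as points with mean ± SD, n = 3 per group. The groups are apart for Jak1, Stat6 and Cish, with OMP higher, and for Stat3, Stat5b and Pim1, with OMP lower.

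Jak1, the kinase shared by IL-6, interferon and common gamma chain receptors, was the most abundant of the 10 genes and rose with OMP. It stood at 68.4, 65.0 and 65.6 RPKM in the OMP libraries, against 53.5, 53.7 and 56.0 RPKM in the Vehicle libraries. Every OMP library was above every Vehicle library. Jak1 (ENSMUSG00000028530, GRCm38 chromosome 4, 101152367 to 101265282) rose 1.22-fold, a log2 change of 0.28 (SE 0.04) with a limma adjusted p of 0.00112, from 3501 reads in OMP and 3226 in Vehicle.

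Jak2, the kinase of the IL-3, GM-CSF, erythropoietin and thrombopoietin receptors, stood at 12.3, 12.4 and 13.1 RPKM with OMP, against 13.0, 12.3 and 13.5 RPKM with Vehicle. The groups overlapped. Its log2 fold change was -0.03 ± 0.07 SE, with a 95% interval from -0.19 to 0.13 (limma adjusted p = 0.745). The sign turned with median-of-ratios scaling, quantile normalization and removal of the GC and length trend, without a call under any alternative.

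A ratio of 2 genes within a library is nearly independent of how libraries are scaled. On the log2(RPKM + 0.5) scale, the ratio of Jak2 to Jak1 was -2.42, -2.35 and -2.28 in the OMP libraries, against -2.00, -2.08 and -2.02 in the Vehicle libraries. The ratio was lower in all 3 OMP libraries than in any Vehicle library, by a difference of -0.32 (exact two-sided permutation test, p = 0.1, the smallest p that 3 against 3 libraries allow). The other JAK genes, Jak3, the partner of the common gamma chain, and Tyk2, a kinase of the interferon and IL-12 family receptors, were lower with OMP. Jak3 averaged 9.81 ± 0.320 RPKM in OMP and 13.6 ± 1.52 RPKM in Vehicle (SD, n = 3 each), a log2 change of -0.45 (SE 0.09) with a limma adjusted p of 0.00499. Tyk2 averaged 16.6 ± 1.39 RPKM in OMP and 19.9 ± 0.135 RPKM in Vehicle (limma adjusted p = 0.0209), a call lost with median-of-ratios scaling (0.103), quantile normalization (0.123), the GC and length trend removed (0.107), and without any 1 of OMP replicate 2, OMP replicate 3 or Vehicle replicates 1, 2 and 3 (0.0517 to 0.0637). Jak1 made up 62.9% ± 0.421 of the summed RPKM of the 4 JAK genes in OMP and 54.0% ± 0.940 in Vehicle (SD, n = 3 each). The share of Jak2 was 12.0% ± 0.572 in OMP and 12.8% ± 0.234 in Vehicle. The sum itself was 105.4 ± 2.91 RPKM in OMP and 100.8 ± 2.83 RPKM in Vehicle.

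**Figure D2:**
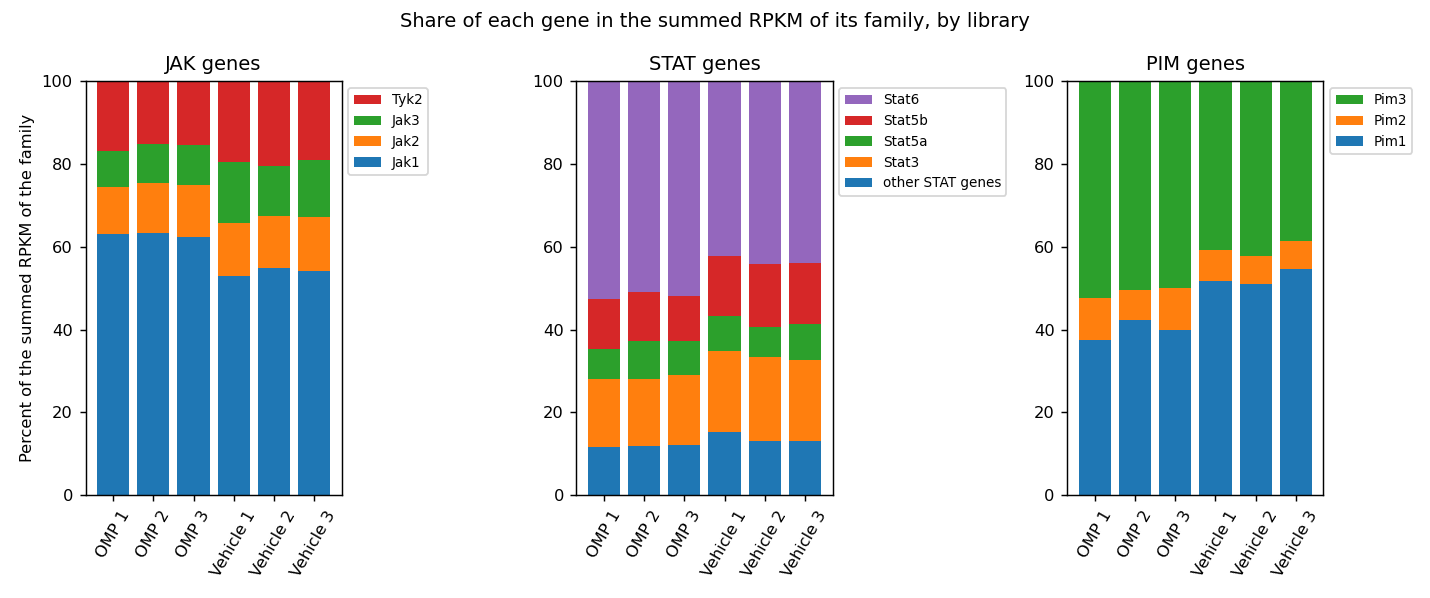
Stacked bars of the share (percent) of each gene in the summed RPKM of the JAK, STAT and PIM families, with the STAT genes outside the 10 pooled, 1 bar per library and the 3 OMP libraries on the left of each panel. Jak1 takes 62.5% to 63.3% of the JAK sum in OMP and 53.0% to 54.9% in Vehicle, Stat6 takes the largest share of the STAT sum in every library, and Pim1 a smaller share of the PIM sum in OMP.

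Stat6, the transcription factor of IL-4 and IL-13 signalling, was the most abundant STAT gene and rose. It stood at 60.6, 58.5 and 60.7 RPKM with OMP, against 49.7, 54.2 and 51.5 RPKM with Vehicle. The lowest OMP library was above the highest Vehicle library. Stat6 (ENSMUSG00000002147, chromosome 10, 127642986 to 127660957) rose 1.16-fold, a log2 change of 0.21 (SE 0.05) with a limma adjusted p of 0.00766. The rise lost the call with TPM, where it was 0.13 (limma adjusted p = 0.0717). Of 12 known STAT6 targets 2 were tested and 1 was higher, against 15.4% higher among all genes tested. With limma-voom, median-of-ratios scaling, quantile normalization or the GC and length correction 2 of these 2 were higher. With no minimum level 8 targets were tested and 2 were higher. With a minimum of 5 RPKM 1 target was tested and 0 were higher. Of the 12 targets 4 had 0 reads in all libraries, among them Arg1 and Retnla, known from macrophages. Chil3, a chitinase-like protein of myeloid cells, stood at 5.23 ± 1.33 RPKM in OMP, against 0.832 ± 0.628 RPKM in Vehicle, a log2 change of 2.21 (SE 0.39) with a limma adjusted p of 0.00217, from 87 and 15 reads. Chil3 is also expressed by maturing neutrophils, whose markers rose, and the source of its rise was not tested. Il4ra, the IL-4 receptor chain, did not pass (limma adjusted p = 0.0822).

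Stat3, the factor of IL-6 and G-CSF signalling, fell. Its level was 18.8, 18.5 and 19.8 RPKM with OMP, against 22.9, 24.7 and 23.0 RPKM with Vehicle. No OMP library reached the lowest Vehicle library. Stat3 (ENSMUSG00000004040, chromosome 11, 100885098 to 100939540) had a log2 change of -0.30 (SE 0.06) with a limma adjusted p of 0.00452.

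Stat5b, with Stat5a the factor of IL-3, GM-CSF and growth hormone signalling, fell as well. It stood at 13.8, 13.6 and 12.9 RPKM with OMP, against 17.0, 18.7 and 17.1 RPKM with Vehicle. Here too the groups were apart. Stat5b (ENSMUSG00000020919, chromosome 11, 100780731 to 100850724) had a log2 change of -0.38 (SE 0.07) with a limma adjusted p of 0.00262.

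Stat5a, its close paralogue, stood at 8.54, 10.6 and 9.61 RPKM with OMP, against 9.84, 8.99 and 10.2 RPKM with Vehicle. The groups overlapped, and the lowest and the highest of the 6 values were both OMP libraries. The log2 fold change of Stat5a (ENSMUSG00000004043, chromosome 11, 100859351 to 100885169) was -0.02 ± 0.10 SE, with a 95% interval from -0.25 to 0.21 (limma adjusted p = 0.912), and its sign turned with median-of-ratios scaling, quantile normalization, the GC and length correction, and without OMP replicate 1 or Vehicle replicate 3. The 3 genes lie next to each other. Stat5b and Stat5a point away from each other across 8626 bp, and the 3′ ends of Stat5a and Stat3 overlap by 72 bp on opposite strands. No source used here gives the strand setting of the counting, so how reads in those 72 bp were counted is not known. Of the 50-base windows of the Stat5a transcript, 15.8% also occur in an annotated Stat5b transcript, and reads there could be split between the paralogues or dropped.

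The within-library log2 ratio of Stat5a to Stat5b was -0.66, -0.34 and -0.41 in OMP, against -0.76, -1.02 and -0.72 in Vehicle. Each OMP library had a higher ratio than each Vehicle library, by 0.36 on average (exact two-sided permutation test, p = 0.1, the smallest possible). The design cannot reach a p under 0.05. Stat2, a factor of type I interferon signalling, was lower at 6.91 ± 0.435 RPKM in OMP, against 10.3 ± 1.07 RPKM in Vehicle (log2 fold change -0.54 ± 0.10 SE, limma adjusted p = 0.00286). The summed level of the 7 STAT genes was 115.8 ± 1.22 RPKM in OMP and 119.1 ± 3.17 RPKM in Vehicle. Within it, Stat6 held 51.8% ± 0.851 in OMP and 43.5% ± 1.02 in Vehicle, Stat3 16.4% ± 0.431 in OMP and 19.8% ± 0.337 in Vehicle, and Stat5b 11.6% ± 0.521 in OMP and 14.8% ± 0.410 in Vehicle (SD, n = 3 each).

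**Figure D3:**
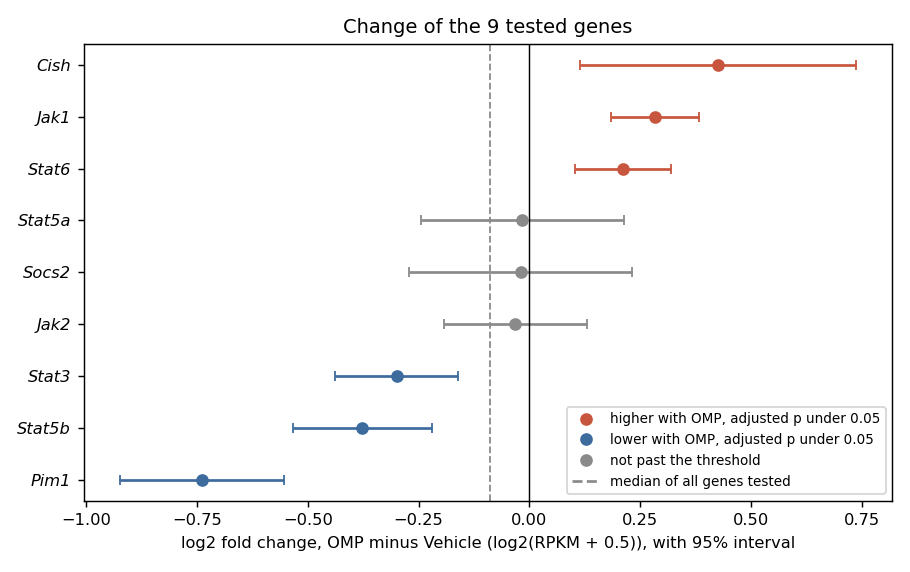
Log2 fold change (OMP minus Vehicle, log2(RPKM + 0.5)) of the 9 tested genes with the 95% interval from limma, red for higher, blue for lower and grey for not past the threshold. The dashed line is the median of all genes tested, -0.09. The intervals of Stat5a, Socs2 and Jak2 include 0, and Pim1 lies farthest from 0.

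Cish, a SOCS-family inhibitor best known as a STAT5 target, was low and rose. It stood at 4.02, 4.35 and 4.81 RPKM with OMP, against 3.19, 3.43 and 2.81 RPKM with Vehicle. The groups did not overlap. Cish (ENSMUSG00000032578, chromosome 9, 107296026 to 107302784) had a log2 change of 0.43 (SE 0.14) with a limma adjusted p of 0.0339. Mean RPKM with OMP was 1.40 times that with Vehicle. The call rests on few reads, 40, 44 and 51 in the OMP libraries and 34, 40 and 34 in the Vehicle libraries. It was lost with TPM (limma adjusted p = 0.0642), without a minimum level (0.0919), and on leaving out OMP replicate 2 (0.0712), OMP replicate 3 (0.107), Vehicle replicate 1 (0.0690) or Vehicle replicate 3 (0.101), while the sign stayed positive under all 16 alternatives that gave a value.

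Socs2, an inhibitor of growth hormone signalling and another STAT5 target, stood at 6.44, 6.21 and 6.05 RPKM with OMP, against 6.62, 6.93 and 5.51 RPKM with Vehicle. The OMP values lay within the range of the Vehicle values. The log2 fold change was -0.02 ± 0.11 SE, with a 95% interval from -0.27 to 0.23 (limma adjusted p = 0.899), and its sign turned with median-of-ratios scaling, quantile normalization, the GC and length correction, and without Vehicle replicate 1 or 2.

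Socs3, the feedback inhibitor of IL-6 and G-CSF receptors and a STAT3 target, was barely detected. Its RPKM was 0.897, 0.552 and 1.16 with OMP, against 0.629, 0.479 and 1.01 with Vehicle. The groups overlapped almost fully. Socs3 was below the minimum of 1 RPKM in at least 3 libraries, with 8, 5 and 11 reads in OMP and 6, 5 and 11 in Vehicle. The ratio of its reads per library total was 1.22, with an exact 95% interval for counting error alone from 0.657 to 2.29, so a change of that size could not be detected at this depth (exact two-sided permutation test on log2(RPKM + 0.5), p = 0.6).

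STAT dimers bind a palindrome with the core TTCNNNGAA, which reads the same on both strands. It was searched in the RefSeq promoter windows of GRCm38.p6, 250 bases before to 50 bases after a gene start, which list 9 of the 10 genes in 12 windows. Of all 32851 windows 8.30% hold at least 1 match and 0.457% hold 2 or more. Cish had 2 matches in its single window and Socs3 had 1 match, TTCTTAGAA, that begins 154 bases before the start. The other 7 genes had 0. The longer form TTCNNNNGAA, the spacing preferred by STAT6, was in 0 of the 12 windows, against 6.95% of all windows. The single window of Cish, which rose, and the first of the 2 windows of Pim1, which fell most, are shown because both genes are known STAT5 targets and moved in opposite directions. Both run to 30 bases after the start, on the plus strand, with matches in capitals.
Cish, chr9:107296409-107296688: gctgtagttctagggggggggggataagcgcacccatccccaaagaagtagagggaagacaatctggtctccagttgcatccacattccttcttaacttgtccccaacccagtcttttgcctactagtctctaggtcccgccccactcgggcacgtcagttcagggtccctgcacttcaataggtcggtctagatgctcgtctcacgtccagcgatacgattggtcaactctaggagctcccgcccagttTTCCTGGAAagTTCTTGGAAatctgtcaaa
Pim1, chr17:29490535-29490814: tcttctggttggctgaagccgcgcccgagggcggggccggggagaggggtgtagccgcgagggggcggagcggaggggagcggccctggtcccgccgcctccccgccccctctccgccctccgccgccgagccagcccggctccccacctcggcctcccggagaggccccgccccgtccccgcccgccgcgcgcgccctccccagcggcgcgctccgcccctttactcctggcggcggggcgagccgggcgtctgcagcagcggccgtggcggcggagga
The 2 Cish matches, TTCCTGGAA and TTCTTGGAA, begin at the start base and 11 bases after it, and neither Pim1 window has one. The RefSeq start of Cish, base 107296659, lies inside the GENCODE interval given above, which begins at 107296026. Bases of Cish before 107296409 were not searched. A match describes the letters only, and its absence here says nothing of sites elsewhere at Pim1.

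Pim1, a serine/threonine kinase that supports survival and growth and is induced by STAT5 and STAT3, fell most. It stood at 14.1, 17.4 and 16.1 RPKM with OMP, against 26.2, 26.4 and 27.6 RPKM with Vehicle. The highest OMP value was well below the lowest Vehicle value. Pim1 (ENSMUSG00000024014, chromosome 17, 29490753 to 29496112) was 1.67-fold lower, a log2 change of -0.74 (SE 0.08) with a limma adjusted p of 1.91e-04, from 451 reads in OMP and 852 in Vehicle. It passed the threshold under all 17 alternatives, with values from -0.83 to -0.65.

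The other PIM kinases did not pass the threshold. Pim3 stood at 20.2 ± 0.487 RPKM in OMP and 20.7 ± 1.13 RPKM in Vehicle (limma adjusted p = 0.723), and Pim2 at 3.63 ± 0.539 RPKM in OMP and 3.61 ± 0.172 RPKM in Vehicle (limma adjusted p = 0.992). Pim1 held 39.9% ± 2.41 of the summed RPKM of the 3 PIM genes in OMP and 52.4% ± 1.86 in Vehicle, and Pim3 held 50.9% ± 1.38 in OMP and 40.5% ± 1.74 in Vehicle (SD, n = 3 each). Pim1 was the more abundant of the pair in every Vehicle library and Pim3 in every OMP library.

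By level, Jak1 and Stat6 led in both groups, and Socs2, Cish and Socs3 were the lowest, in that order. In OMP, Jak1 was above Stat6 in every library, while in Vehicle the ranges of Jak1 and Stat6 overlapped. Pim1 was below Stat3 in OMP but above it in Vehicle, each time in all libraries. Stat5b and Jak2 overlapped in OMP, where Stat5b ran from 12.9 to 13.8 RPKM and Jak2 from 12.3 to 13.1 RPKM, and in Vehicle Stat5b was above Jak2 throughout. All other neighbours in the order were apart in both groups.

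**Figure D4:**
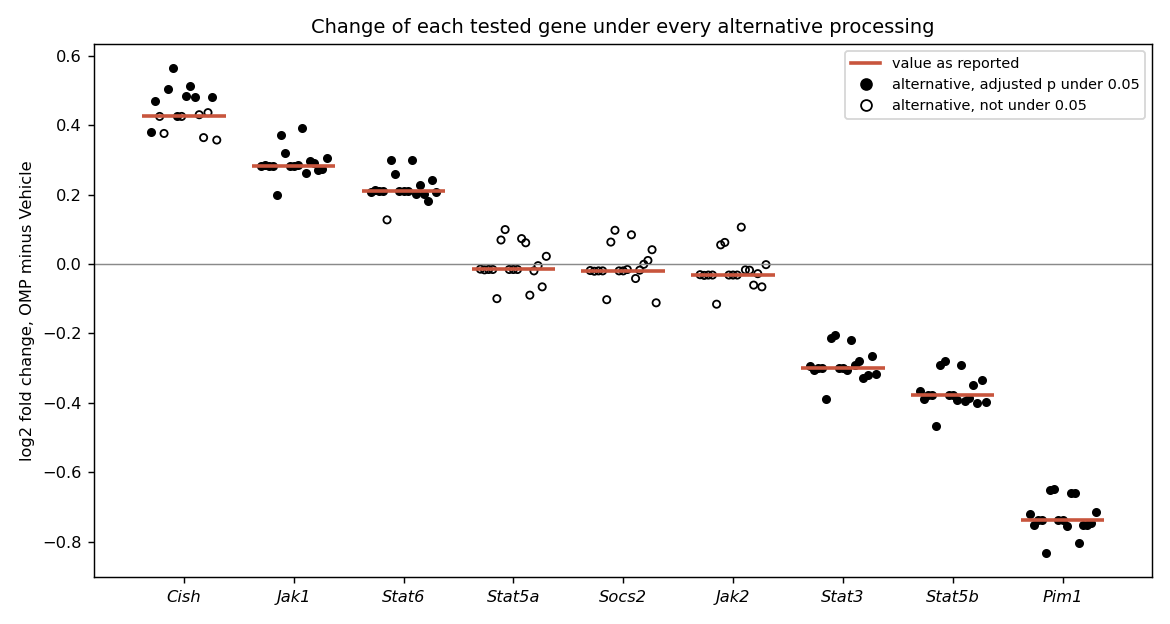
Log2 fold change (OMP minus Vehicle) of the 9 tested genes under each alternative processing, as filled points where the adjusted p was under 0.05 and open points where it was not, with the reported value as a red line. Jak1, Stat3, Stat5b and Pim1 have filled points only, Stat6 has 1 open point and Cish 7.

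The rest of the JAK, STAT, SOCS and PIM families, 12 genes, had a median log2 fold change of -0.09, as for all genes tested. Of the 12, 0 were higher and 5 lower, against 15.4% higher and 27.5% lower among all genes tested. The 5 were Jak3, Tyk2, Stat2, Socs4 and Socs7, the last pair named after their values were seen. With median-of-ratios scaling, quantile normalization or the GC and length correction, 3 of the 12 were lower, and likewise without OMP replicate 3 or any 1 Vehicle library. Socs1, an inhibitor of interferon and IL-4 signalling that acts on JAKs, stood at 3.12 ± 0.493 RPKM in OMP and 2.37 ± 0.375 RPKM in Vehicle without overlap, but did not pass (limma adjusted p = 0.158). Of 20 phosphatases, PIAS proteins and adaptors that act on the pathway 3 were higher and 5 lower (median -0.02), to be set beside the same shares of all genes. With median-of-ratios scaling 5 of the 20 were higher and 3 lower. Dok2, an adaptor that restrains cytokine signalling in myeloid cells, rose 1.64-fold to 64.0 ± 2.05 RPKM in OMP, against 38.8 ± 0.748 RPKM in Vehicle (limma adjusted p = 1.10e-05). Pias1 and Pias2, SUMO ligases that bind STATs, fell by 0.61 and 0.60 on the log2 scale, Pias1 to 24.6 ± 0.775 RPKM in OMP, against 37.9 ± 1.45 RPKM in Vehicle (limma adjusted p = 6.25e-05).

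Of 35 receptor chains that signal through JAKs 18 were tested. Of these 18, 6 were higher and 3 lower (median 0.12), against 15.4% higher and 27.5% lower among all genes tested. Without OMP replicate 2, OMP replicate 3, Vehicle replicate 1 or Vehicle replicate 2 the 3 lower became 2. With TPM 5 were higher and 4 lower, with median-of-ratios scaling 7 and 3, with quantile normalization 8 and 2, and with the GC and length correction 8 and 3. For the cytokines of the medium, the shared beta chain Csf2rb was higher, at 78.4, 82.0 and 79.7 RPKM in OMP and 68.3, 73.0 and 68.8 RPKM in Vehicle (log2 fold change 0.19 ± 0.04 SE, limma adjusted p = 0.00796), a call lost with TPM (0.0713). The IL-3-specific beta chain Csf2rb2 was higher too, by 0.37 ± 0.10 SE (limma adjusted p = 0.0175), a call lost without Vehicle replicate 3 (0.0602). These 2 genes are paralogues, and 18.9% of the 50-base windows of Csf2rb also occur in Csf2rb2, so the split of reads between them is uncertain. Il3ra, the IL-3 alpha chain, stood at 15.9 ± 1.08 RPKM in OMP and 14.7 ± 1.17 RPKM in Vehicle and did not pass (limma adjusted p = 0.299). Il6ra, the IL-6 alpha chain, stood at 3.35 ± 0.357 RPKM in OMP and 3.61 ± 0.387 RPKM in Vehicle (limma adjusted p = 0.631). Il6st, the gp130 chain through which IL-6 signals, was low and fell, to 0.601 ± 0.108 RPKM in OMP, against 1.48 ± 0.223 RPKM in Vehicle (limma adjusted p = 0.0322), from 56 and 154 reads, and the call was lost on leaving out any library except OMP replicate 1 (adjusted p 0.0520 to 0.0995). Kit, the SCF receptor, which is a tyrosine kinase itself, was 8.88 ± 1.15 RPKM in OMP and 19.8 ± 1.20 RPKM in Vehicle (limma adjusted p = 7.54e-05). Ifngr1, a chain of the interferon gamma receptor, fell by 0.98 on the log2 scale, to 86.4 ± 2.89 RPKM in OMP, against 171.6 ± 2.65 RPKM in Vehicle (limma adjusted p = 8.54e-07). Crlf2 and Il12rb1, chains of the TSLP and IL-12 receptors, rose by 0.75 ± 0.16 SE and 0.76 ± 0.14 SE.

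Of 22 cytokine genes that act through JAKs 9 had 0 reads, Il3 among them, and 4 were tested. Of these 4, 2 were higher and 1 lower, against 15.4% higher and 27.5% lower among all genes tested. Without OMP replicate 1, 1 was higher, and without Vehicle replicate 1, or with median-of-ratios scaling, quantile normalization or the GC and length correction, 3 were. Osm, oncostatin M, a cytokine of the IL-6 family and a STAT5 target, rose 1.70-fold to 25.9 ± 1.81 RPKM in OMP, against 15.0 ± 0.868 RPKM in Vehicle (limma adjusted p = 1.04e-04). Csf2, the gene of GM-CSF, named after its values were seen, was called higher on 15 reads in OMP and 2 in Vehicle, 8.41 times as many per library total (exact 95% limits for counting error 1.96 and 75.8). Il12a, a subunit of IL-12, was lower, at 4.69 ± 0.648 RPKM in OMP and 9.92 ± 1.59 RPKM in Vehicle (limma adjusted p = 7.04e-04). Il6 had 6 reads in OMP and 5 in Vehicle.

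**Figure D5:**
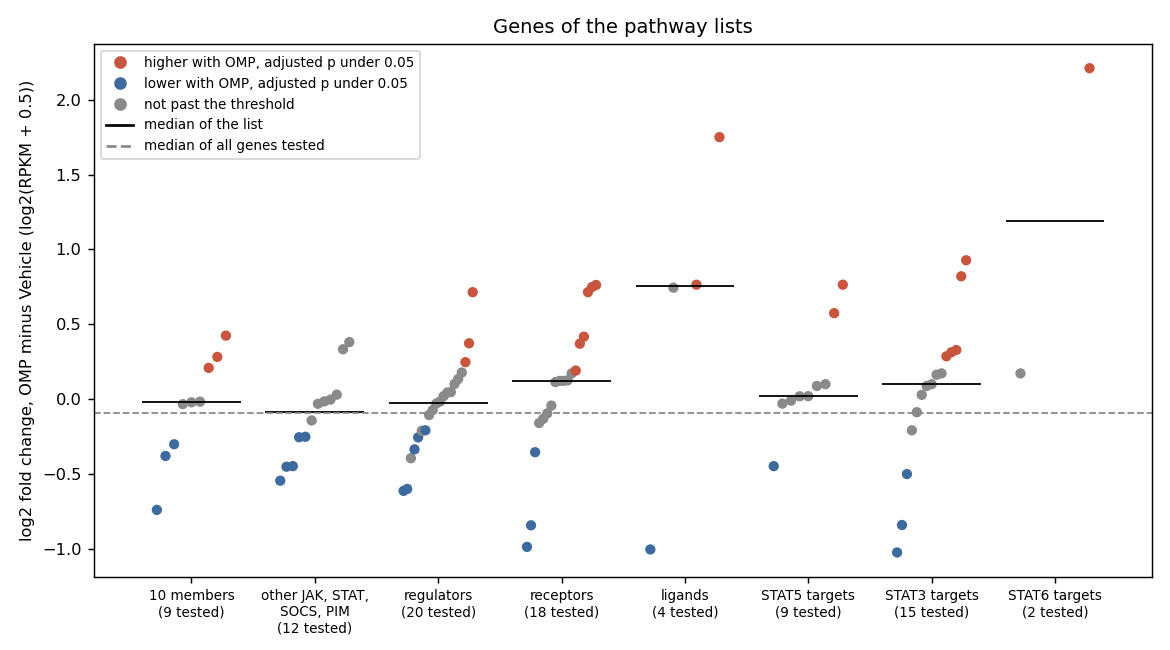
Log2 fold change (OMP minus Vehicle, log2(RPKM + 0.5)) of every tested gene of the 10 members and of 7 lists of the pathway, red for higher, blue for lower and grey for not past the threshold, with the list median as a black line and the median of all genes tested dashed. Most lists hold both higher and lower genes, and the JAK, STAT, SOCS and PIM genes outside the 10 have lower calls only.

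Of 9 tested STAT5 targets other than the members 2 were higher and 1 lower (median 0.02), against 15.4% higher and 27.5% lower among all genes tested. Bcl2l1, the gene of the survival protein BCL-XL, rose 1.49-fold to 36.0 ± 1.10 RPKM in OMP, against 24.0 ± 0.644 RPKM in Vehicle (limma adjusted p = 7.13e-05). Ccnd3, cyclin D3, fell by 0.45 on the log2 scale, to 65.4 ± 3.63 RPKM in OMP, against 89.2 ± 1.95 RPKM in Vehicle (limma adjusted p = 2.19e-04). Ccnd2, cyclin D2, stood at 57.7 ± 2.27 RPKM in OMP and 56.9 ± 2.90 RPKM in Vehicle (limma adjusted p = 0.794). Mcl1, a survival protein, stood at 92.4 ± 2.85 RPKM in OMP and 86.2 ± 4.36 RPKM in Vehicle (limma adjusted p = 0.126), and Myc had an adjusted p of 0.137 in limma. Both Mcl1 and Myc passed as higher with median-of-ratios scaling and with the GC and length trend removed, where the STAT5 list had 4 higher and 1 lower. Of the members known as STAT5 targets, Cish was higher, Pim1 lower, and Socs2 past the threshold in neither direction.

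Of 15 tested STAT3 targets 5 were higher and 3 lower (median 0.10), so 8 of 15 were called, against 43.0% of all genes tested. With TPM 2 were higher and 4 lower, with median-of-ratios scaling 8 and 3, and with the GC and length correction 9 and 3. The counts were 2 higher and 2 lower without OMP replicate 1, and 3 and 2 without OMP replicate 2 or Vehicle replicate 1. They were 3 and 3 without Vehicle replicate 3, and 3 and 2 of 17 tested with no minimum level. Lcn2, lipocalin 2, rose 1.90-fold to 309.2 ± 12.4 RPKM in OMP, against 162.2 ± 3.51 RPKM in Vehicle (limma adjusted p = 1.26e-06), and is also 1 of the 12 neutrophil markers above. Hp, haptoglobin, which neutrophil precursors also express, fell by 0.84 on the log2 scale, to 228.1 ± 6.44 RPKM in OMP, against 408.7 ± 19.3 RPKM in Vehicle (limma adjusted p = 3.47e-06). Birc5, survivin, a protein of mitosis whose mRNA follows the cell cycle, fell by 1.02 on the log2 scale, to 11.8 ± 0.310 RPKM in OMP, against 24.5 ± 1.47 RPKM in Vehicle (limma adjusted p = 1.35e-05). These target lists come from other cell types and settings as well, and the binding of STATs was not measured here.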

How the data were processed

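RNA selected for poly(A) was sequenced from 6 libraries, 3 of OMP-treated and 3 of Vehicle-treated cells, per the labels' protocols. The authors deposited RPKM values, 1 column per library, which were matched to libraries by title. FastQC 0.11.5, Trimmomatic 0.36, STAR 2.5.3a, featureCounts 1.6.3 and the build mm10 (GRCm38) are named in the submitters' processing notes. The sources used here do not give the annotation release, strand setting or multi-mapping setting. Whole reads were recovered for 100.0% of 19970 genes above 0 (relative tolerance 1e-06), and intervals from these reads cover counting error only. The length used was that of an annotated transcript for 94.6% of these genes. Where a length was taken from the steps of the values alone, whole numbers follow nearly by construction. Libraries of a group differed by more than sampling noise (chi-square per degree of freedom 1.19 to 1.62).

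Genes reaching an RPKM of 1 in 3 or more libraries were fitted with limma 3.58.1 in R 4.3.3 on log2(RPKM + 0.5), without covariates, with a trended prior and Benjamini-Hochberg adjustment over 11020 genes. The procedure was run on simulated data with few changed genes, balanced in direction. Such data cannot test how scaling moves the balance of directions. Single ratios used exact permutation tests over libraries. The members and gene lists were chosen with earlier results of these data known. Named genes were the members, 17 genes fixed by name, and from each of 6 lists up to 3 called genes with the largest change and a mean RPKM of at least 5, and any further gene was named after its values were seen. Of 213 listed names 212 matched 1 row, and Itgam, on 2 rows, was left out. Positions came from GENCODE M21 and promoter sequences from RefSeq (GRCm38.p6). Alternatives were other pseudocounts (1 and 0.1), no minimum and a minimum of 5, limma-voom on recovered reads, values as TPM, a correction for GC content and length by loess, the replicate block, a prior made robust to outliers, scaling by quantiles or by median of ratios, and leaving out each library. Figures used matplotlib 3.10.9.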

Additional observations from a re-analysis of the deposited data

How the results depend on the processing

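Between 3968 and 5336 genes were called over the alternatives, against 4735 as reported, and 4 to 6 of the members, against 6, with the smallest number under TPM. The median log2 fold change of all genes was -0.09 as reported, -0.17 with TPM and -0.01 with median-of-ratios scaling. For the members, 144 values under alternatives stayed on their side of the threshold and 8 lost the call, 7 of them Cish and 1 Stat6, and 0 reversed a call. In 13 values of Jak2, Stat5a and Socs2, none of them called, the sign turned. For the other named genes 483 stayed, 16 lost the call, 4 gained it (Mcl1 and Myc), and 0 reversed a call. Cish was under the filter at an RPKM of 5 and has no value there. Leaving out each library in turn, the difference in the log2 ratio of Stat5a to Stat5b ran from 0.27 to 0.46 and that of Jak2 to Jak1 from -0.35 to -0.28. The replicate numbers of the titles share only a number, since libraries with the same number had deviations correlated at -0.0024, 0.0155 and 0.0069. With the replicate block 4445 genes (1598 higher, 2847 lower) and 5 members were called, Cish losing the call (limma adjusted p = 0.0687), as did Il6st (0.0597). No other gene named by rule changed its call, and of the JAK, STAT, SOCS and PIM genes outside the members 4 were lower, against 5 as reported. Depth limits Socs3 and Cish, which drew 5 to 11 and 34 to 51 reads a library.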

Other observations

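The SOCS genes differed among themselves in level and direction. Socs4 had the largest share of the summed RPKM of the 8 SOCS genes in both groups, 22.6% ± 1.14 in OMP and 28.7% ± 1.41 in Vehicle (SD, n = 3 each), and was called lower. Cish held 9.77% ± 1.12 in OMP and 6.41% ± 0.590 in Vehicle, Socs2 13.8% ± 0.327 in OMP and 13.0% ± 1.42 in Vehicle, and Socs3 1.94% ± 0.727 in OMP and 1.45% ± 0.580 in Vehicle. The summed level was 45.0 ± 1.20 RPKM in OMP and 49.0 ± 0.446 RPKM in Vehicle. The SOCS genes known as STAT targets, Cish, Socs1, Socs2 and Socs3, were less abundant together than Socs4, Socs5, Socs6 and Socs7 in both groups.

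The spread between libraries can be set beside what counting reads alone would give. The coefficient of variation of Cish was 9.09% in OMP and 9.98% in Vehicle, where counting error alone amounts to 14.9% and 16.7%. For Socs3 it was 35.0% in OMP and 39.1% in Vehicle, against 35.4% and 36.9% from counting. For Pim1 it was 10.5% in OMP, against 8.16% from counting, and 2.83% in Vehicle, against 5.93% from counting. Each of these values rests on 3 libraries, and differences in spread between the groups were not tested.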
